A study of Homo sapiens with 7 samples.

Results

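The guides described here were those of a CRISPR interference screen that target regulatory regions on human chromosome 16. They were taken as every guide whose region name ends in that chromosome's name, which gave 50 guides against 10 regions, with 5 guides a region. The whole table held 466 guides against 95 regions, so the chromosome 16 set made up 10.7% of the guides. The library was carried by C4-2B CRISPRi-ready cells, a derivative of the LNCaP human prostate cancer line that grows without androgen. The labels give 6 libraries from tumours that grew after the cells were placed under the skin of mice, taken at the end of the screen, and 1 library from cultured cells after about 10 doublings. All 7 libraries carried the same guide library. The strain, age and number of the mice, the number of tumours per mouse and whether the cells are 1 clone are not stated in the labels. Each tumour title carries a number and an L or an R. Their meaning is not stated, so whether tumours were paired is not known.

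In CRISPR interference a Cas9 protein that cannot cut DNA is brought to a site by its guide and represses it, usually through a fused domain that recruits repressive chromatin. At a promoter or enhancer this lowers the output of the genes the element serves. A guide becomes rarer in a growing population when silencing its site slows the cells that carry it, and more common when silencing favours them. Loss of the long arm of chromosome 16 is a recurrent event in advanced prostate cancer. Guide sequences, positions and target genes are not analysed here, so the regions carry only their numbers and were assigned to neither arm and to no gene.

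Each guide has an estimate in the authors' deposited table, read as the natural log of an odds ratio, and a rescaled z score. A score below 0 likely marks a guide that was rarer in the tumours than in the comparator. The sign and the comparator are not defined in the file, so "lower" and "higher" mean only below and above 0. Odds ratios were computed from the deposited estimates, where 1 means no change, and their 95% intervals include the authors' widening of the error by a factor of 1.35. The table holds 1 fitted value per guide and 0 columns per library, so depth is unknown and the spread between tumours could not be measured. Whether the authors' errors hold any of that spread is not stated in the file. Guides of 1 region share a target and are not replicate tumours.

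No chromosome 16 guide passed a threshold of 0.05 on the authors' q-value. In the authors' deposited table, 0 of the 50 guides had a q-value under 0.05 in either direction, against 1.29% of all guides called lower and 0% called higher. At the authors' unadjusted p of 0.05, 7 chromosome 16 guides (14%) were lower, against 13.1% of all guides. At that same threshold 1 guide (2.0%) was higher, against 0.644% of all guides. The share of lower guides was thus near that of the whole table. With the authors' unscaled p-values, adjusted over all guides, 6 chromosome 16 guides were lower and 1 higher, against 10.1% and 0.644% of all guides. The 7 lower guides lay in 5 of the 10 regions, and regions 1125 and 1193 each held 2 of them.

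Most of the 50 guides lay below 0, as did most guides of the table. On chromosome 16, 38 guides (76%, 95% Wilson interval 62.6 to 85.7%) were below 0 and 12 above, against 292 of 416 guides (70.2%, 65.6 to 74.4%) on the other chromosomes. These intervals take guides as independent, although guides of 1 region share a target, so they may be too narrow. The median odds ratio was 0.837 on chromosome 16, with quartiles of 0.732 and 0.992, and 0.859 on the other chromosomes. Odds ratios on chromosome 16 ran from 0.495 to 2.27, against 0.214 to 6.44 in the larger remainder. The largest standard error was 0.663 on chromosome 16 and 1.27 elsewhere. Scores ran from -2.67 to 2.86 on chromosome 16 (SD 1.07 over guides) and from -5.60 to 2.40 elsewhere (SD 1.10). The narrower range of odds ratios thus did not hold for the high end of the score. In a linear mixed model over all 466 guides with region as a random term, the mean score was -0.69 on chromosome 16 and -0.64 elsewhere. The difference of -0.044 (95% interval -0.37 to 0.28, p = 0.79 in the mixed model, n = 50 and n = 416 guides) did not pass the threshold. Leaving out region 1193 turned it to 0.039 and leaving out region 1762 to 0.030, so its sign was not stable. Those regions had the lowest means of the chromosome, so leaving out either raises the difference by construction.

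Set against the chromosomes with the most similar numbers of regions, the chromosome 16 guides again did not differ past the threshold. Their mean score minus that of the 55 chromosome 19 guides was -0.15 (95% interval -0.69 to 0.39, p = 0.57 in the mixed model, n = 10 and n = 11 regions). Minus the 41 chromosome 3 guides it was -0.10 (-0.64 to 0.43, p = 0.69 in the mixed model, n = 50 and n = 41 guides). By the mean of its region means, chromosome 16 stood at rank 10 from the lowest of 19 chromosomes.

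The regions of chromosome 16 were ordered by the mean score of their guides. Region means of the score were -1.44 for region 1193, -1.36 for 1762, -1.06 for 1125, -0.90 for 313, -0.89 for 605, -0.65 for 1205, -0.49 for 198, -0.35 for 473, -0.0026 for 1405 and 0.25 for 1756. Thus 9 of 10 lay below 0, as did 77 of the 85 regions on other chromosomes. Against the median of all guides in the table, -0.65, 5 of the 10 region means lay below and 5 above. Averaged over the 10 regions, the region mean was -0.69 ± 0.55 (SD over regions), against -0.64 ± 0.50 over the other 85 regions.

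Regions were tested on the authors' scale by adding the scores of a region's guides and dividing by the square root of their number. Over 94 regions with at least 2 guides, 10.6% were lower at a Benjamini-Hochberg adjusted p of 0.05, and 2 of the 10 chromosome 16 regions were among them. These were regions 1193 and 1762. At the unadjusted threshold 5 chromosome 16 regions (50%) were lower, against 36.2% of all tested regions. The test takes guides as independent with a true mean of 0, whereas the guides of the table lay mostly below 0. When every score was taken relative to the table's median guide, 0 chromosome 16 regions passed. The adjusted p of the combined score was then 0.68 for region 1193 and 0.73 for region 1762. The smallest was 0.64, for region 1756 on the higher side (0.043 unadjusted, combined score). How many of the 94 regions passed after centring is not given here, so that 0 has no share of the table beside it.

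Region 1193 (1193_chr16) had the lowest mean on the chromosome and the sixth lowest of the table's 95, at -1.44 ± 0.88 (SD over its 5 guides). In the authors' deposited table, guides 56 and 60 scored -2.41 and -2.39. Guides 57, 58 and 59 scored -0.80, -0.75 and -0.85 in the authors' deposited table. Every guide was thus below 0, with 2 scores lower than the other 3, which lay nearer the median of the whole table. Set against their errors by Cochran's Q, the 5 guides did not differ past the threshold (2.19 on 4 degrees of freedom, chi-square p = 0.70 unadjusted). The odds ratio of 1193_chr16_seq60 was 0.522 (0.305 to 0.895) and that of 1193_chr16_seq56 was 0.580 (0.371 to 0.909). The least changed, 1193_chr16_seq57, had an odds ratio of 0.822 (0.497 to 1.36). Weighted by precision, the region's odds ratio was 0.665 (0.522 to 0.848), the lowest on the chromosome.

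Region 1762 (1762_chr16) was the other region with all 5 guides below 0, a state shared by 16% of the 94 regions. Its mean was -1.36 ± 0.86 (SD over 5 guides). The lowest chromosome 16 guide of all, 1762_chr16_seq220, scored -2.67 in the authors' deposited table, with a q-value of 0.22 there. Its odds ratio was 0.495 (0.293 to 0.835). The authors' deposited table placed guides 223, 222 and 224 at -1.52, -1.28 and -1.0, and guide 221 at -0.32. Guide 221 was the nearest to no change, at an odds ratio of 0.936 (0.595 to 1.47). The region's weighted odds ratio was 0.743 (0.605 to 0.912). Guide 224 had the smallest standard error of the 50, at 0.147 on the natural log scale, and its odds ratio was 0.825 (0.559 to 1.22).

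Region 1125 (1125_chr16) held 2 of the 7 lower guides and others with scores close to 0. Guides 35 and 32 scored -2.55 and -2.32 in the authors' deposited table, whereas guides 31 and 34 scored -0.073 and 0.27 there. Guide 33 lay between them, at -0.62 in the authors' deposited table. For 1125_chr16_seq35 the odds ratio was 0.520 (0.312 to 0.864) and that of 1125_chr16_seq34 was 1.07 (0.672 to 1.72). The mean was -1.06 ± 1.30 (SD over 5 guides) and the weighted odds ratio 0.789 (0.635 to 0.981). Its interval lay below 1, but the combined score did not pass after adjustment.

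Region 313 (313_chr16) had its lowest value in 1 guide, with the other 4 between -0.94 and 0.021. Guide 283 scored -2.47 in the authors' deposited table, with an odds ratio of 0.559 (0.350 to 0.893). The values for guides 282, 284, 285 and 281 in the authors' deposited table were -0.94, -0.70, -0.42 and 0.021. The region mean of -0.90 ± 0.95 (SD over 5 guides) became -0.51 without guide 283. Its weighted odds ratio was 0.829 (0.681 to 1.01), and the combined score did not pass after adjustment. The highest guide, 313_chr16_seq281, had an odds ratio of 1.01 (0.669 to 1.53).

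Region 605 (605_chr16) had a mean of -0.89 ± 0.90 (SD over 5 guides), and its combined score did not pass after adjustment. Guides 374 and 373 scored -1.81 and -1.71 in the authors' deposited table, and guide 371 scored -0.99. Guides 375 and 372 were placed at -0.18 and 0.22 by the authors' deposited table. Guide 375 carried little information, since its standard error of 0.663 was the largest of the 50 and its odds ratio of 0.873 had an interval from 0.152 to 5.03. For 605_chr16_seq374 the odds ratio was 0.665 (0.425 to 1.04) and that of 605_chr16_seq372 was 1.05 (0.702 to 1.58). The weighted odds ratio of the region was 0.791 (0.625 to 1.001), with guide 375 contributing least.

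Region 1205 (1205_chr16) sat at the middle of the table, with a mean of -0.65 ± 1.01 (SD over 5 guides). Its lowest guide, 70, scored -1.98 in the authors' deposited table, and guides 67, 69 and 66 scored -1.04, -0.53 and -0.53. Guide 68 lay above 0, at 0.82 in the authors' deposited table. The odds ratio of 1205_chr16_seq70 was 0.629 (0.394 to 1.003). Its unadjusted p in the authors' deposited table was 0.048 although the interval reached 1, because the rescaling also moves the zero of the score. The odds ratio of 1205_chr16_seq68 was 1.21 (0.774 to 1.90), and that of the region 0.862 (0.694 to 1.07).

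Region 198 (198_chr16) had guides on both sides of 0 and a mean of -0.49 ± 1.20 (SD over 5 guides). According to the authors' deposited table, guides 233, 230 and 232 scored -1.96, -1.13 and -0.83, and guides 234 and 231 scored 0.52 and 0.95. The odds ratio of 198_chr16_seq233 was 0.672 (0.449 to 1.01). That of 198_chr16_seq231 was 1.71, the second largest of the 50, but its standard error of 0.409 was also the second largest and its interval ran from 0.583 to 5.04. The weighted odds ratio of the region was 0.856 (0.692 to 1.06).

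Region 473 (473_chr16) held the most alike guides of the 10 regions, with a mean of -0.35 ± 0.61 (SD over 5 guides). In the authors' deposited table its scores ran from -1.26 for guide 339 through -0.67 for guide 336 and -0.12 for guide 337 to 0.068 for guide 340 and 0.24 for guide 338. The lowest guide, 473_chr16_seq339, had an odds ratio of 0.710 (0.412 to 1.22), and the highest, 473_chr16_seq338, one of 1.06 (0.702 to 1.59). The weighted odds ratio of the region was 0.941 (0.754 to 1.18). A fall below 0.754 or a rise above 1.18 lay outside that interval.

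Region 1405 (1405_chr16) was the closest to 0, with a mean of -0.0026 ± 0.82 (SD over 5 guides). Guide 132 scored 1.22 and guide 130 scored 0.31 in the authors' deposited table. Guides 131, 133 and 134 lay below 0, at -0.84, -0.65 and -0.048 in the authors' deposited table. For 1405_chr16_seq132 the odds ratio was 1.33 (0.850 to 2.08) and that of 1405_chr16_seq131 was 0.819 (0.505 to 1.33). The region's weighted odds ratio was 1.01 (0.805 to 1.27). Guide 134 was poorly measured, with a standard error of 0.344.

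Region 1756 (1756_chr16) held the highest-scoring guide of the table and had the third highest region mean, at 0.25 ± 1.49 (SD over 5 guides). Guide 218 scored 2.86 in the authors' deposited table, with a q-value of 0.16 there, and its odds ratio was 2.27 (1.30 to 3.95). Guides 217, 215, 219 and 216 scored -0.80, -0.54, -0.34 and 0.087 in the authors' deposited table. Those other 4 guides had odds ratios between 0.836 and 1.03, all below that of guide 218. The lowest of them, 1756_chr16_seq217, had an odds ratio of 0.836 (0.530 to 1.32). The region's weighted odds ratio was 1.05 (0.843 to 1.30) with all guides and 0.911 (0.720 to 1.15) without guide 218. Without it the mean score was -0.40, so the sign of the mean changed, but leaving out the highest guide lowers a mean by construction. The interval of the odds ratio held 1 both with and without guide 218.

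The 10 regions were compared with each other by the differences between their weighted estimates, over 45 pairs. At a p of 0.05 adjusted over the 45 pairs, 0 pairs differed, and at the unadjusted threshold 5 did. The largest contrast in units of its error was region 1193 against region 1756, whose odds ratios of 0.665 and 1.05 gave a ratio of 0.635 (95% interval 0.459 to 0.880). Region 1193 against region 1405 gave a ratio of 0.657 (0.471 to 0.918). All 5 pairs set region 1193 or 1762 against region 1756, 1405 or 473. Over the 10 regions together, Cochran's Q was 13.1 on 9 degrees of freedom (chi-square p = 0.16), so a spread between regions beyond the guides' own errors was not detectable. The authors' errors before rescaling gave a Q of 23.7 (chi-square p = 0.0048) and 3 pairs past the adjusted threshold. Without the highest and lowest of the 50 guides, 0 pairs passed the adjusted threshold and 2 the unadjusted one. Those guides were removed for their extreme scores, which narrows the spread by construction.

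Guides of the same region were compared in the same way. Cochran's Q within regions, summed over chromosome 16, was 42.9 on 40 degrees of freedom (chi-square p = 0.35). Summed over the other chromosomes it was 400 on 331 degrees of freedom (chi-square p = 0.0057). Per degree of freedom the values were 1.07 and 1.21. Guides of 1 region elsewhere thus spread more than the rescaled errors allow, which limits the intervals and combined scores that use them. None of the 10 regions passed at an adjusted p of 0.05, against 1.06% of the 94 regions, and 0 passed at the unadjusted threshold, against 6.38%. The largest value was 9.14 on 4 degrees of freedom in region 1756 (chi-square p = 0.058 unadjusted, 0.66 adjusted over 94 regions). The second was 7.51 in region 1125 (chi-square p = 0.11 unadjusted, 0.66 adjusted). The smallest was 1.73 in region 473. Apart from regions 1193 and 1762, each of the other 8 regions had guides on both sides of 0. With the errors before rescaling, the summed Q was 77.9 (chi-square p = 0.00031), so the reading depended on the width the authors gave to the error.

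Precision was set beside that of the table. The chromosome 16 guides' median standard error was 0.179 on the natural log scale, against 0.176 on the other chromosomes, so a typical 95% interval reached 1.61-fold either way. A standard error above 0.25 was found for 5 of the 50 guides (10%), against 9.01% of the table. These 5 lay in 5 different regions. They were 605_chr16_seq375, 198_chr16_seq231, 1405_chr16_seq134, 473_chr16_seq336 (0.285) and 1193_chr16_seq58 (0.265). None of them was among the lower guides at an unadjusted p of 0.05, which a large error makes harder to reach.

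At the ends of the table's ranking, chromosome 16 was present in about its share of the guides. Of the lowest 46 of the table's 466 guides, 6 were on chromosome 16, which was 12% of the chromosome's 50. Of the highest 46 guides, 4 were on chromosome 16 (8.0%), in regions 1756, 1405, 198 and 1205. The lowest chromosome 16 score, -2.67, did not reach the -3.49 of the weakest guide called in the authors' deposited table. The 6 called guides all lay on other chromosomes. Ordered by guide number within a region, the median scores at the 5 places ranged from -0.78 to -0.38.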

How the data were processed

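Guide amplicons were sequenced from genomic DNA of 6 tumour libraries and 1 culture library. The submitters' processing notes name cutadapt, UMI-tools, SAMtools, Bowtie2 and build hg38, with no versions or roles. How guides were counted and fitted, and which libraries were compared, is not stated there. The deposited estimate was read as a natural log. The deposited z score is linear in the deposited unscaled score (shift 0.0404, scale 1.35), and the deposited p-value and q-value follow from it, with 0 guides off by over 1e-09. The standard error was recovered as the estimate over the unscaled score.

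Computed here, in Python 3.11.15 (scipy 1.17.1) and R 4.3.3 (nlme 3.1.168), were odds ratios and 95% normal intervals, combined scores and Cochran's Q over 94 regions, region pairs weighted by inverse variance, and the mixed model. These tests rest on the authors' errors. The combined score, Cochran's Q within regions and the mixed model were also run on simulated scores, which were independent between guides. Unchanged guides were there centred on no change. Most guides of the real table were lower, so those runs cannot show that the calls made here hold. An exact sign-flip test of 5 guides cannot go below p = 0.0625 and was not used. All 50 guides are named by rule; the chromosome 19 and 3 comparisons were added later. The members and lists were chosen with earlier results of these data known. Non-targeting guides are not analysed here.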

Additional observations from a re-analysis of the deposited data

Results flagged for a closer look

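Guide 1756_chr16_seq218 stood far from the other guides of its region. It scored 2.86, and the other 4 guides of the region lay between -0.80 and 0.087, so the gap above them was 0.757 of the region's whole range. The criterion is Dixon's at 95%, with guides in place of samples. It takes no account of the guides' differing errors. Chance alone marks about 1 group in 20, and 1 of the 10 chromosome 16 regions was marked, against 2 of the 94 regions with 4 or 5 guides. Cochran's Q, which uses those errors, did not pass for this region (chi-square p = 0.058 unadjusted, 0.66 adjusted over 94 regions). No reason for the high score of this guide was tested.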

How the results depend on the processing

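The count of 0 lower and 0 higher guides on chromosome 16 became 6 and 1 with the authors' unscaled p-values after adjustment (10.1% and 0.644% of all guides), and 7 and 1 with the authors' p-values left unadjusted; centring on the median of all guides kept 0 and 0. The 2 lower regions became 0 after centring. They also became 0 without the lowest-scoring guide of each region, which raises every mean by construction (1193 to -1.20 and 1762 to -1.03). The share of all regions that passed under those settings is not given here. Weighting by inverse variance called 2, the same 2 regions, against 10.6% of the 94 tested regions. The weighted test uses the same guides and also takes no change as the true mean. The difference from other chromosomes reversed to 0.039 without region 1193 and to 0.030 without region 1762, the regions with the lowest means. With the other 8 regions left out in turn it ran from -0.15 to -0.0033, and in no setting did it pass the threshold (p from 0.39 to 0.98). Q with the errors before rescaling rose to 23.7 between regions and 77.9 within them, since smaller errors raise Q by construction. Without the highest and lowest of the 50 guides Q was 8.42 and 31.4, and removing extremes narrows the spread by construction. No paired analysis was possible because values of single libraries are not analysed here, and for the same reason single tumours could not be left out and depth is unknown.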
